A study of Mus musculus with 3 samples.

Results

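The tachykinins are a family of short neuropeptides, and the genes described here are the peptide precursors Tac1 and Tac2 and the receptors Tacr1 and Tacr3. They were taken by symbol, and are 4 of the 28001 features counted. Single cells came from the nucleus accumbens, the ventral part of the striatum, dissected from 400 µm coronal brain slices of mice of the strain Thy1::ChR2. In that strain the Thy1 promoter drives the light-gated channel ChR2. All samples carried FLiCRE, a labelling system in which a calcium rise during light leads to transcription of a reporter, and were labelled while ChR2 was stimulated with light in the nucleus accumbens. They form 1 group of 3 libraries. There was no unstimulated or unlabelled group, so cell classes were compared within each library. The labels used here give neither the age of the mice nor the number of animals behind a library, so p-values measure only the spread between these libraries, which may be technical.

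Tac1 encodes the precursor of substance P and neurokinin A, and Tac2 the precursor of neurokinin B. Tacr1 encodes the NK1 receptor, which binds substance P best, and Tacr3 the NK3 receptor, which binds neurokinin B best; both signal through Gq proteins and phospholipase C. In the striatum, substance P is known as a product of the projection neurons that carry the dopamine receptor Drd1, while neurons with the adenosine receptor Adora2a make enkephalin from Penk. Tshz1 and Pcdh8 mark a group of projection neurons related to the Drd1 type. Substance P receptors of the striatum are known from cholinergic interneurons and from interneurons that make Sst and Npy.

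All members lie on the forward strand of GRCm38 (mm10) and are annotated as protein coding in GENCODE M21: Tac1 (ENSMUSG00000061762) at chr6:7554879-7565834, Tac2 (ENSMUSG00000025400) at chr10:127724478-127731768, Tacr1 (ENSMUSG00000030043) at chr6:82402334-82560104 and Tacr3 (ENSMUSG00000028172) at chr3:134829007-134934579. The coding stretches of the 3 main peptides are shown because the family is defined by the end that these peptides share, and because Tac1 holds 2 of them. Each runs 5′ to 3′ over 11 codons, and the 5 codons in capitals encode the shared C-terminal end.
Tac1, substance P: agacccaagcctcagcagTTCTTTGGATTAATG
Tac1, neurokinin A: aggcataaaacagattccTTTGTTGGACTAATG
Tac2, neurokinin B: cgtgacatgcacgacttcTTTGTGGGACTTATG
The substance P stretch lies in exon 3 of the transcript Tac1-201, at chr6:7556732-7556764. The neurokinin A stretch of Tac1-203 is split over 2 exons within chr6:7557743-7559130, and the neurokinin B stretch of Tac2-201 is split over 2 exons within chr10:127728476-127729145. Both of these include 1 codon ahead of the peptide. In the capitals, neurokinin B has 13 of 15 bases in common with neurokinin A and 10 of 15 with substance P, and the Tac1 stretches have 12 of 15 in common. The transcript Tac1-201 holds only the first of the Tac1 stretches, whereas Tac1-203 and Tac1-205 hold both. Reads from the 3′ end, as counted here, do not tell these transcripts apart, so a Tac1 value is for the gene and not for a peptide.

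The deposited cells numbered 2717, 6627 and 2281 in libraries 1 to 3, which are named by the suffix of their cell barcodes. After filtering, 2350, 6079 and 1862 cells remained (10291 in all), with a median of 993, 2123 and 2705 UMIs (counted RNA molecules) per cell. In pairs, libraries shared 13 (1 with 2), 7 (1 with 3) and 22 (2 with 3) barcodes. Each cell was gated by markers that include no tachykinin gene: 4378 cells were gated as neurons, 2997 as non-neuronal cells, and 2916 stayed outside every gate, among them cells with markers of more than 1 broad class. Drd1-gated neurons had a UMI of Drd1, Isl1, Eya1 or Slc35d3 and numbered 162, 808 and 141 in libraries 1 to 3. Adora2a-gated neurons had one of Adora2a, Drd2 or Gpr6 and numbered 196, 481 and 128. Cells of either class had no UMI of the other class's list and none of Tshz1 or Pcdh8. Exactly 1 UMI of their own list was found in 457 of 1111 Drd1-gated and 251 of 805 Adora2a-gated cells. Tshz1-gated neurons had at least 2 UMIs over Tshz1 and Pcdh8, with or without the Drd1 markers but without those of the Adora2a list, and numbered 15, 200 and 156. Of these 371 cells, 180 had exactly 2 such UMIs, and 715 further neurons with a single one formed a class just outside the gate. Sst-Npy-gated interneurons were rare, with 9, 23 and 10 cells. The gates are ranges of marker counts and not types: 56.6% of Tshz1-gated and 35.7% of Sst-Npy-gated cells also had a UMI of the Drd1 list.

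Across all kept cells, Tac1 had 20787 UMIs in 4091 cells, with up to 82 in a single cell. The other members were rare. Tac2 had 139 UMIs in 89 cells, Tacr1 145 UMIs in 82 cells and Tacr3 27 UMIs in 18 cells, and 65.2%, 67.1% and 77.8% of those cells had a single UMI. Of the related genes, Tac4, which encodes the hemokinin precursor, had 1 UMI, and Tacr2, the NK2 receptor, had 0. The members are compared below between classes and not with each other.

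Tac1 was highest in Tshz1-gated and Drd1-gated neurons. In Drd1-gated neurons it reached 1670, 2516 and 1854 CPM in libraries 1 to 3 (the UMIs of the gene relative to all UMIs of the class), and in Tshz1-gated neurons 2031, 2814 and 2013 CPM. In Adora2a-gated neurons it was 145, 328 and 81.3 CPM. The lowest Drd1-gated library thus lay above the highest Adora2a-gated one. Drd1-gated neurons held 32.7% of all Tac1 UMIs, neurons with a single Tshz1 or Pcdh8 UMI 14.8% and Tshz1-gated neurons 11.5%.

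**Figure D1:**
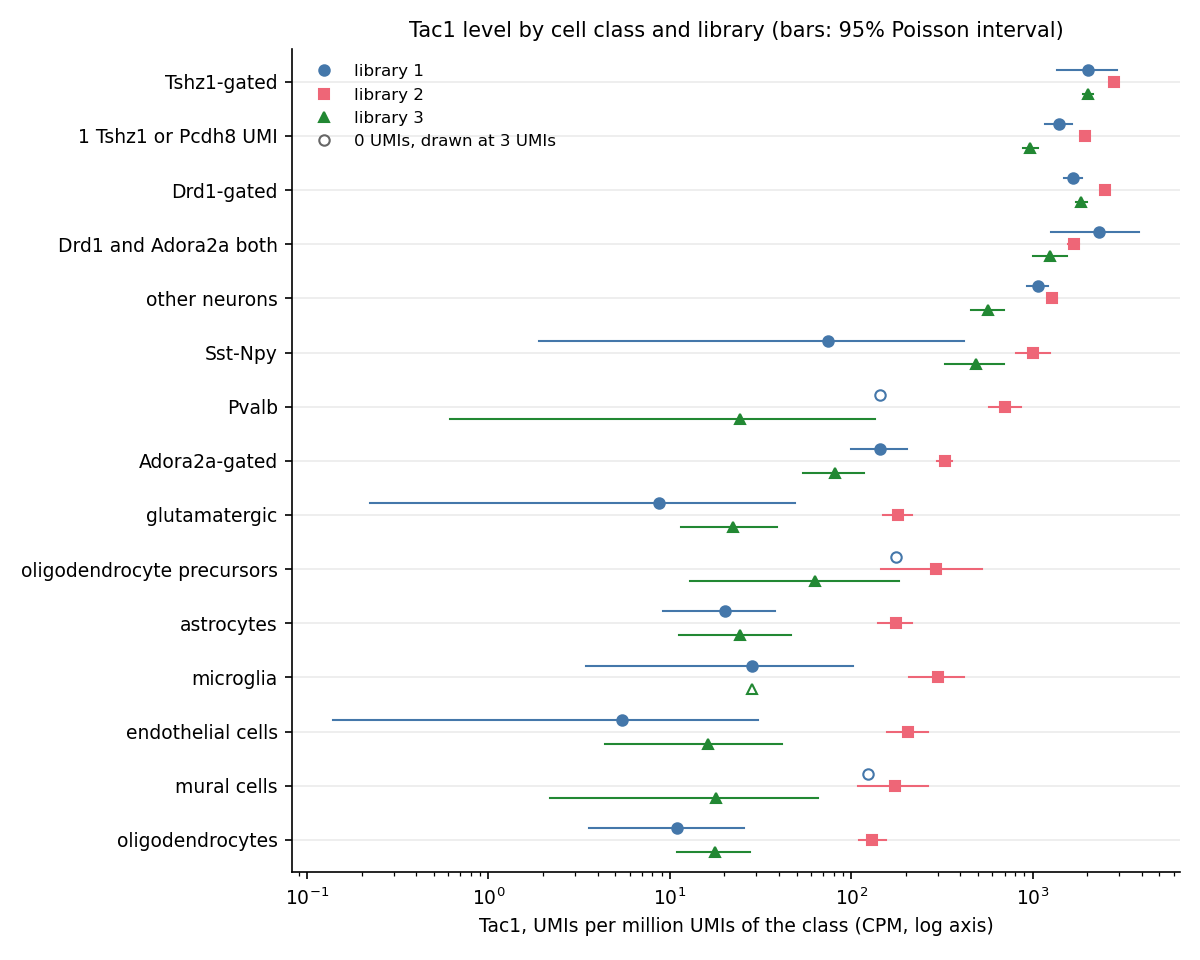
Tac1 level in CPM (log axis) in a choice of gated classes, 1 point per library with its exact 95% Poisson interval. Open markers stand for 0 UMIs and are drawn at 3 UMIs. Drd1-gated and Tshz1-gated neurons lie between 1670 and 2814 CPM in all libraries, and library 2 is highest in Drd1-gated, Tshz1-gated and Adora2a-gated neurons and in each non-neuronal class shown.

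Ordered by the mean over libraries, Tac1 was at 2286 ± 458 CPM in Tshz1-gated neurons (SD, n = 3 libraries, as for the other means) and at 2013 ± 445 in Drd1-gated neurons. Neurons with markers of both the Drd1 and the Adora2a list, only 4 cells in library 1 (142 and 14 in libraries 2 and 3), had 1747 ± 534. Next came neurons with a single Tshz1 or Pcdh8 UMI (1440 ± 488), other neurons (972 ± 366) and Sst-Npy-gated interneurons (525 ± 468). Neurons with markers of both the Tshz1 and the Adora2a list had 690 ± 598 CPM but held only 1 cell in library 1, and they are left out of the order with the Vip-Htr3a-gated class, which had 1 cell in each library. Also left out are the 4 cholinergic-gated cells and the 8 cells that met several gates, which libraries 2 and 3 alone held. Each step down to the Sst-Npy-gated class was smaller than the larger SD of the neighbours it separates. Of the neuron classes, Pvalb-gated interneurons (244 ± 401), Adora2a-gated neurons (185 ± 128) and glutamatergic neurons (70.9 ± 96.1) followed. Some non-neuronal classes had higher means than glutamatergic neurons. These were oligodendrocyte precursors (119 ± 155), microglia (110 ± 166), endothelial cells (76.0 ± 113), astrocytes (73.4 ± 88.6) and MHC class II macrophages (72.7 ± 126). All non-neuronal cells together had 66.6 ± 88.4 CPM, and the neighbours at this end of the order also overlapped in their libraries' values.

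The share of cells with a Tac1 UMI was 72.8%, 90.8% and 75.9% among Drd1-gated neurons, 60.0%, 85.0% and 67.9% among Tshz1-gated neurons and 9.69%, 42.8% and 9.38% among Adora2a-gated neurons of libraries 1 to 3. Shares depend on depth, and Drd1-gated cells had a median of 1101, 2527 and 2511 UMIs against 1063, 2758 and 2104 in Adora2a-gated cells. After each cell was thinned to 1000 UMIs, with shallower cells left out, the shares were 67.0%, 79.2% and 58.0% for Drd1-gated, 83.3% (of 6 cells), 73.7% and 59.9% for Tshz1-gated and 7.21%, 23.8% and 6.03% for Adora2a-gated neurons. The order of the Drd1-gated and Adora2a-gated classes was the same in each library with and without thinning.

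Tac1 was also counted in non-neuronal cells, which are not known as a source of it, and most in library 2. All non-neuronal cells together had 12.9, 169 and 18.4 CPM, which is 0.771%, 6.70% and 0.992% of the level in Drd1-gated neurons of the same library. Among oligodendrocytes, 1.19%, 24.4% and 6.79% of cells had a Tac1 UMI at a median of 947, 2016 and 4025 UMIs per cell. Tac1 of Adora2a-gated neurons was above the non-neuronal level of its own library in all 3 libraries. Non-neuronal cells together held 0.395, 0.762 and 0.317 Tac1 UMIs per Penk UMI, close to the 0.319, 0.602 and 0.300 over all neurons of the same libraries. Single classes varied more, some on few UMIs. The ratio was 0.238, 0.740 and 0.426 in oligodendrocytes, 1.29, 0.748 and 0.173 in astrocytes and 0.0625, 0.461 and 0.0976 in glutamatergic neurons. The part of free RNA in the low Tac1 levels was not tested.

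The first comparison asked which members separate the main classes of spiny projection neurons, those with Drd1 and those with Adora2a. Tac1 was 11.5-fold, 7.67-fold and 22.8-fold higher in Drd1-gated than in Adora2a-gated neurons of libraries 1 to 3. In the edgeR quasi-likelihood fit with the library as block, this was a log2 fold change of 3.25 (SE 0.24, adjusted p 0.0042, higher in 3 of 3 libraries). Of the 6690 genes tested, 2.71% passed in either direction, 1.3% as higher and 1.41% as lower, and the median log2 fold change over all of them was -0.001. With stricter gates the log2 fold change was 3.46 (SE 0.35) and missed the threshold, with an edgeR adjusted p of 0.068. Tac2, Tacr1 and Tacr3 did not pass the filter on low counts in this comparison.

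Thinned cells also gave the number of Tac1 UMIs per cell. The median was 1, 2 and 1 UMIs per 1000 in Drd1-gated neurons, 3.5 (6 cells), 2 and 1 in Tshz1-gated neurons and 0 in Adora2a-gated neurons of each library. At least 5 Tac1 UMIs per 1000 were found in 4.40%, 14.4% and 9.92% of Drd1-gated neurons, with highest values of 6, 16 and 13. Among Tshz1-gated neurons, 0%, 21.7% and 8.45% reached that level. Among Adora2a-gated neurons the share was 0.901%, 1.29% and 0%, although single cells reached 5, 11 and 4 UMIs.

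**Figure D2:**
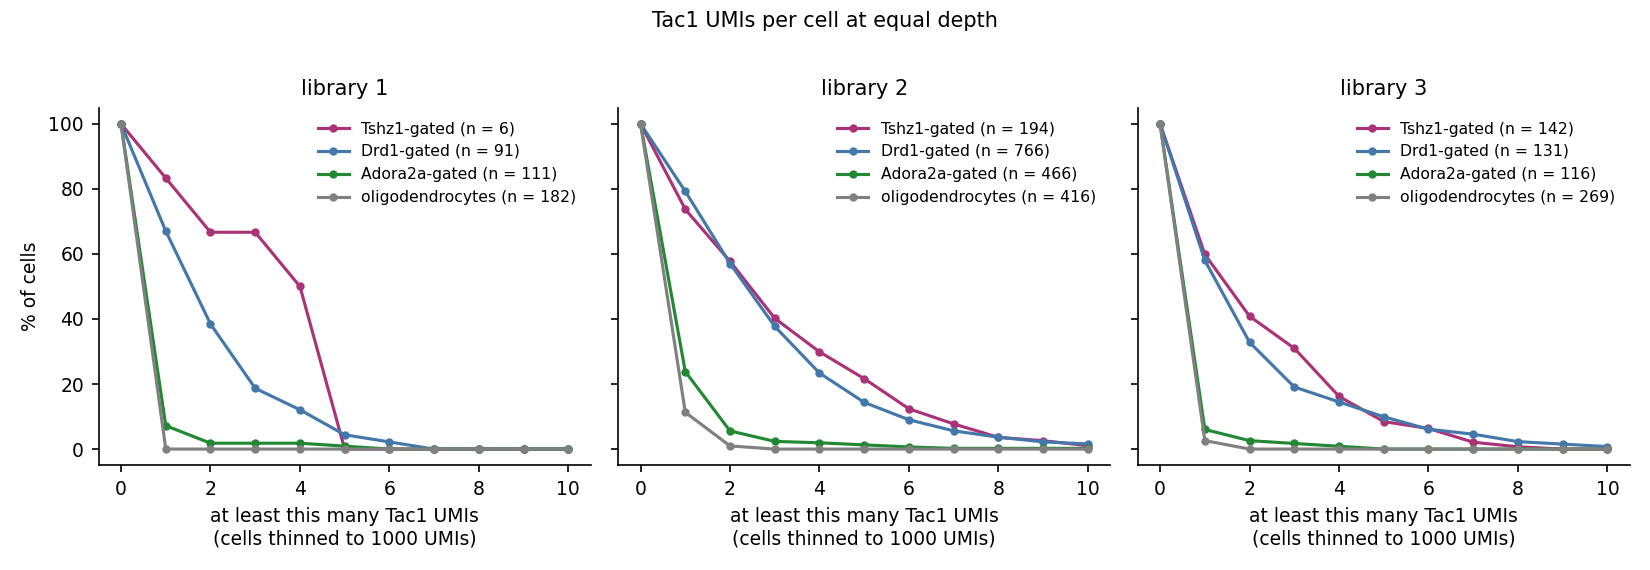
Percent of cells (vertical axis) with at least the given number of Tac1 UMIs (horizontal axis) after thinning each cell to 1000 UMIs, 1 panel per library, for Tshz1-gated, Drd1-gated and Adora2a-gated neurons and oligodendrocytes. At 5 UMIs, 14.4% of Drd1-gated but 1.29% of Adora2a-gated neurons of library 2 remain.

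The second comparison set Tshz1-gated against Drd1-gated neurons. For Tac1 the libraries gave ratios of 1.22, 1.12 and 1.09, with an edgeR log2 fold change of 0.09 (SE 0.21, adjusted p 0.96), so no difference beyond the spread was detected. Of 7060 genes tested, 2.42% passed, and their overall median was -0.02 on the log2 scale. Inside the Tshz1-gated class, cells with a Drd1-list UMI (7, 118 and 85 cells) had 2697, 3401 and 2755 Tac1 CPM. Cells without one (8, 82 and 71 cells) had 1143, 1700 and 697 CPM. The first set was higher in each library, and its cells were also deeper, at a median of 1217, 2393 and 3350 against 717, 1915 and 2142 UMIs. In the same split Pdyn, which encodes the dynorphin precursor, was at 1471, 415 and 455 against 163, 165 and 115 CPM. This split was described and not tested.

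Of these 3 classes of projection neurons, Tshz1-gated neurons most often held Tac1 and Penk together. In thinned cells, both had a UMI in 33.3% (of 6 cells), 52.1% and 43.7% of Tshz1-gated neurons, in 13.2%, 23.8% and 14.5% of Drd1-gated neurons and in 4.50%, 20.4% and 3.45% of Adora2a-gated neurons. With at least 3 UMIs of each, the shares were 16.7% (1 cell), 17.5% and 19.7% for Tshz1-gated, 0%, 2.48% and 0.763% for Drd1-gated and 0%, 0.429% and 0% for Adora2a-gated neurons. The Tshz1-gated share was highest in every library at both cuts, a description with no test. A share with both genes also depends on how common each gene is in the class. Whether Tac1 and Penk shared cells more often than their separate shares would give was not tested. The part of free RNA in these shares, such as the 20.4% of Adora2a-gated neurons in library 2, was not tested either.

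**Figure D3:**
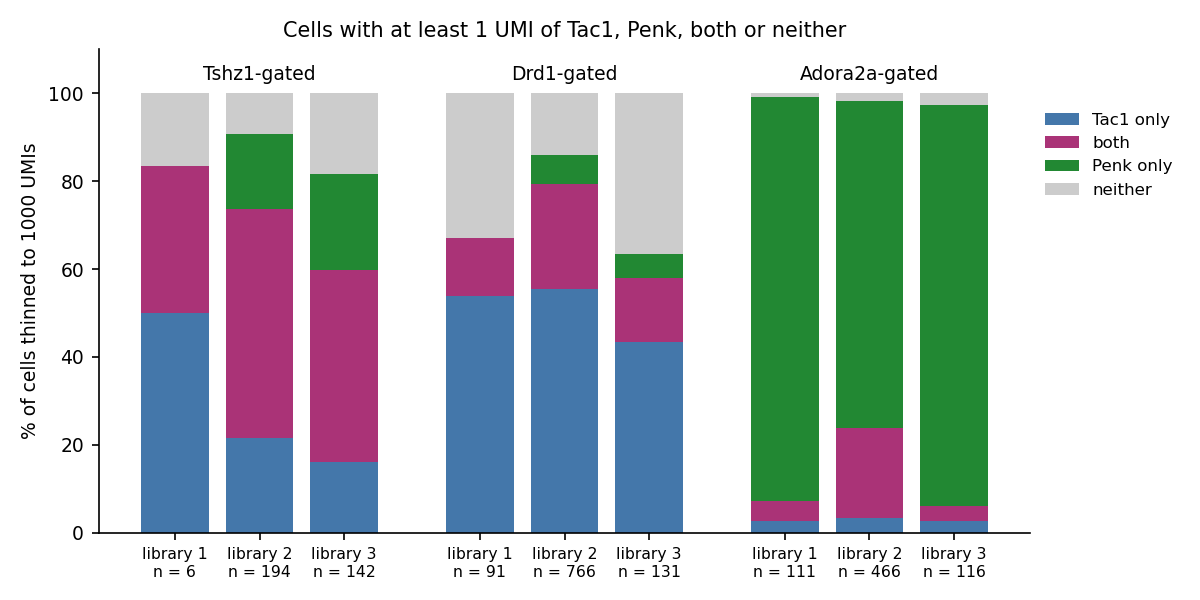
Percent of cells with a UMI of Tac1 only, of Tac1 and Penk, of Penk only or of neither, after thinning to 1000 UMIs, for each class and library (stacked bars from 0 to 100%). The part with both is 52.1% and 43.7% for Tshz1-gated neurons of libraries 2 and 3, against 23.8% and 14.5% for Drd1-gated neurons.

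Outside the projection neurons, Tac1 levels differed by class and library. Glutamatergic neurons, which the dissection also held, had 8.76, 182 and 22.4 CPM, close to the non-neuronal level of their library. Against spiny neurons, here the sum of Drd1-gated and Adora2a-gated cells, their edgeR log2 fold change was -4.23 (SE 0.42, adjusted p 0.00013, lower in 3 of 3 libraries), and 16.5% of 8088 genes passed (7.28% as lower). Over single libraries the log2 CPM ratio ran from -6.56 (library 1, with 1 Tac1 UMI in glutamatergic neurons and an exact 95% interval of -11.87 to -4.07 for counting error) to -3.22. Sst-Npy-gated interneurons had 74.9 (1 UMI), 1009 and 490 Tac1 CPM. In the 2 libraries with at least 10 Sst-Npy-gated cells, their edgeR log2 fold change against spiny neurons was -0.90 (SE 0.18). It missed the threshold, with an edgeR adjusted p of 0.14. Pvalb-gated interneurons (9, 31 and 9 cells) had 707 Tac1 CPM in library 2 but 0 CPM in their lowest library. They were not tested as a class. All neurons together had 834, 1581 and 954 CPM, which is 64.8-fold, 9.38-fold and 51.9-fold above the non-neuronal cells (edgeR log2 fold change 4.41, SE 0.52, adjusted p 0.00017). In that comparison 64.6% of 11888 genes passed, so a call there is common.

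FLiCRE writes its label as RNA of the mCherry feature, and Drd1-gated neurons with a UMI of mCherry (11, 178 and 22 cells) were compared with those without (151, 630 and 119 cells). Tac1 was at 1786 against 1661, 2905 against 2375 and 2902 against 1585 CPM in libraries 1 to 3. It was higher in the mCherry-positive cells of each library, but the edgeR log2 fold change of 0.44 (SE 0.18) had an adjusted p of 0.85. The positive cells were deeper, at a median of 1553, 3186 and 3542 UMIs against 1064, 2388 and 2385. At that adjustment 0.0% of 5272 genes passed with edgeR, 271 had an unadjusted p under 0.05, and DESeq2 called 0 as well. Drd1-gated neurons with Pdyn, whose peptide is known to be made with substance P, were set against those without. Tac1 was at 1570 against 1734, 2633 against 2266 and 2205 against 642 CPM, with an edgeR log2 fold change of 0.55 (SE 0.29, adjusted p 1.0), and 0.104% of 4785 genes passed. The direction differed between libraries, and without library 3 the log2 fold change was 0.08.

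Among classes with at least 10 cells in every library, Tac2 was highest in Tshz1-gated neurons, which held 55 of its 139 UMIs (39.6%). There it reached 70.0 (1 UMI), 71.7 (34 UMIs) and 39.6 (20 UMIs) CPM in libraries 1 to 3, a mean of 60.4 ± 18.1, and 6.67%, 11.5% and 7.69% of cells had a UMI. Drd1-gated neurons had 10.9 (2 UMIs), 6.65 (15 UMIs) and 0 CPM. Tshz1-gated neurons were thus above Drd1-gated neurons in each library, although library 1 rests on a single UMI. Higher values in smaller classes rested on 1 cell each: the 1 Vip-Htr3a-gated cell of library 3 had 2 Tac2 UMIs, and 1 of 6 cells of library 2 that met several interneuron gates had 3. In Adora2a-gated neurons there were 0 Tac2 UMIs in all libraries. A floor of 3 counts over that group is 1.55 CPM. The level summed over libraries was 35.7-fold this floor in Tshz1-gated and 3.81-fold in Drd1-gated neurons. These folds leave out counting error in the higher class, and the Drd1-gated one rests on 17 UMIs in 8 cells.

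The class with a single Tshz1 or Pcdh8 UMI, just outside the gate, had 10.3, 12.6 and 2.10 Tac2 CPM, near the Drd1-gated values. All non-neuronal cells together had 0, 1.32 and 0.484 CPM. In the edgeR fit Tac2 was higher in Tshz1-gated than in Drd1-gated neurons, with a log2 fold change of 3.52 (SE 0.43, adjusted p 0.00066), where 1.3% of genes passed as higher. Without library 2 it was 3.93 (SE 1.09, edgeR adjusted p 0.53), and without library 3 it was 3.33 (SE 0.25, edgeR adjusted p 0.38). In these fits 0 of 6121 and 0 of 6281 genes passed in edgeR, with 549 and 573 at an unadjusted p under 0.05, so the lost call is not particular to Tac2. Without library 1 it was 3.64 and still passed.

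Of the 89 cells with a Tac2 UMI, 69 had Tac1, 70 had Penk, 30 had Pdyn, 39 had Drd1 and 56 had Tshz1 or Pcdh8. Of the 31 with at least 2 Tac2 UMIs, 28 had Tac1 and 27 had Penk. Both genes were common in library 2, which held 68 of the 89 cells. In that library, Tac1 was found in 66.1% and Penk in 70.6% of 2941 cells with at least 2164 UMIs, a set described further below. Whether cells with Tac2 exceed these shares was not tested. In Tshz1-gated neurons of libraries 2 and 3, Tac1 was found in 82.6% and 100% of the cells with Tac2 and in 85.3% and 65.3% of those without, so its share was higher with Tac2 in library 3 only. Penk was found in 23 of 23 and 12 of 12 cells with Tac2, against 75.7% and 70.8% of those without. Penk was at 3570 and 4696 CPM in the cells with Tac2 and at 1978 and 2985 CPM in the cells without. Tac1 was at 3393 and 2255 against 2736 and 1987 CPM. Pdyn was at 124 and 310 against 356 and 335 CPM, lower in the cells with Tac2 of library 2 and nearly the same in library 3. The median depth was 2254 and 4179 UMIs with Tac2 against 2100 and 2871 without. These splits were not tested, and the 8 Drd1-gated cells with Tac2 were too few for the comparison that was planned on them.

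**Figure D4:**
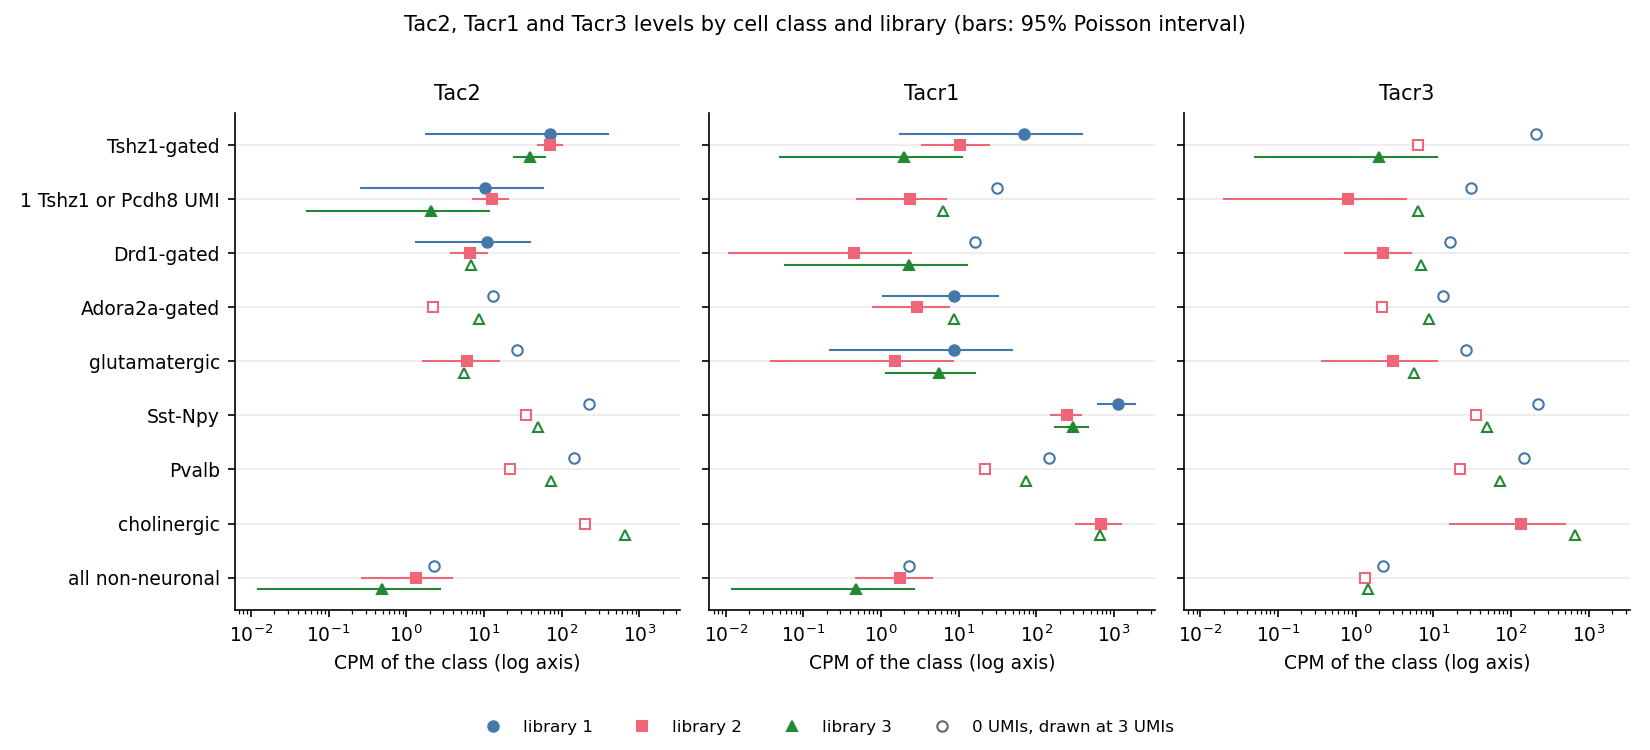
Tac2, Tacr1 and Tacr3 levels in CPM (log axis) in a choice of classes, 1 panel per gene and 1 point per library with its exact 95% Poisson interval. Open markers stand for 0 UMIs and are drawn at 3 UMIs. The Vip-Htr3a-gated cells and the cells of several interneuron gates are not drawn. Tac2 lies at 70.0, 71.7 and 39.6 CPM in Tshz1-gated neurons of libraries 1 to 3, and Tacr1 lies between 246 and 1123 CPM in Sst-Npy-gated interneurons, with the 3 cholinergic-gated cells of library 2 at 676 CPM.

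Tacr1, the substance P receptor, was concentrated in Sst-Npy-gated interneurons: these 42 cells held 54 of its 145 UMIs (37.2%). It reached 1123 (15 UMIs), 246 (21 UMIs) and 294 (18 UMIs) CPM in libraries 1 to 3, and 77.8%, 47.8% and 60.0% of the cells had a UMI. In thinned cells the shares were 71.4%, 18.2% and 40.0%. Within library 2, the 3 cholinergic-gated cells were higher still, at 676 CPM (10 UMIs in 2 of them). The 1 cholinergic-gated cell of library 3 had 0 Tacr1 UMIs. The projection neurons, glutamatergic neurons and non-neuronal cells were far lower. Drd1-gated neurons had 0, 0.443 and 2.29 CPM, Adora2a-gated neurons 8.79, 2.94 and 0, glutamatergic neurons 8.76, 1.53 and 5.60, and all non-neuronal cells 0, 1.76 and 0.484. Tshz1-gated neurons had 70.0 (1 UMI), 10.5 (5 UMIs) and 1.98 (1 UMI) CPM. Pvalb-gated interneurons had 0 UMIs of Tacr1 in 9, 31 and 9 cells, which allows up to 145, 21.9 and 72.8 CPM.

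The Sst-Npy gate itself selects for Sst (27579 ± 5880 CPM) and Npy (14420 ± 1517 CPM), so their levels do not check the class. Ppp1r1b, a gene of spiny neurons, is in no gate. It was at 0 to 235 CPM in single libraries, against a mean of 2188 in Drd1-gated neurons. Library 1 had fewer than the 10 Sst-Npy-gated cells needed for the test. Over libraries 2 and 3 Tacr1 was 178-fold (exact 95% interval 65.5 to 605) and 229-fold (36.2 to 9559) higher than in spiny neurons, which had 5 and 1 Tacr1 UMIs. The edgeR log2 fold change was 7.47 (SE 0.30, adjusted p 0.028), and 0.379% of 7383 genes passed (0.352% as higher). That SE comes from a fit of 39 against 6 UMIs. It is narrower than the exact intervals, which on the log2 scale were 6.03 to 9.24 and 5.18 to 13.2. When 5 cells were enough, a setting added after the data were seen, all 3 libraries entered giving a log2 fold change of 7.40 (SE 0.32, edgeR adjusted p 4.4e-06), where 9.6% of genes passed. Without the filter on low counts the edgeR adjusted p was 0.17, and over all alternatives the log2 fold change lay between 7.16 and 7.53.

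Taking cells by at least 5 UMIs each of Sst and Npy, whatever their gate, gave 6, 25 and 8 cells, a choice made after the data were seen. Of these, 83.3%, 44.0% and 75.0% had a Tacr1 UMI. None of them had a Tacr3 UMI, which allows shares of up to 45.9%, 13.7% and 36.9% (exact 95% Clopper-Pearson intervals, for counting error only). These limits are for cells with a UMI, and not for cells that express the gene. Over neurons as a whole Tacr1 was above non-neuronal cells, with an edgeR log2 fold change of 3.06 (SE 0.71, adjusted p 0.0051), where 31.0% of genes passed as higher. Without library 3 the log2 fold change was 2.87 and the edgeR adjusted p 0.054.

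**Figure D5:**
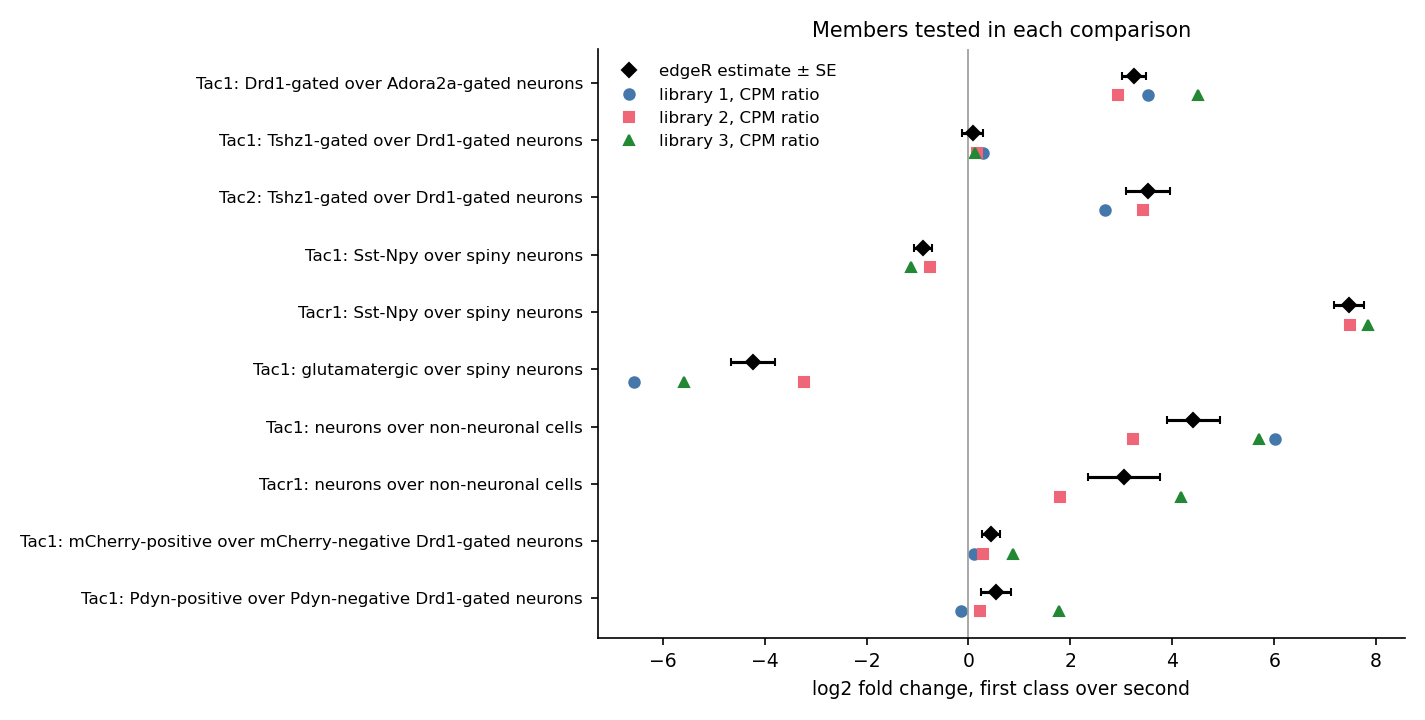
Log2 fold change of each member in each comparison where it could be tested, from edgeR, with bars of 1 standard error; coloured points are the log2 CPM ratios of single libraries, left out where 1 class had 0 UMIs or a library was not in the fit. Tacr1 in Sst-Npy-gated over spiny neurons is farthest from 0 (7.47), and Tac1 in Tshz1-gated over Drd1-gated neurons lies at 0.09.

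Tacr3, the neurokinin B receptor, was near the limit of detection in every gated class. Of its 27 UMIs, 14 (51.9%) lay in 6 cells outside every gate. Drd1-gated neurons had 0, 2.22 (5 UMIs in 5 cells) and 0 CPM. Glutamatergic neurons had 2 UMIs in library 2, and Tshz1-gated neurons 1 UMI in library 3. All non-neuronal cells together had 0 in each library. In no comparison did Tacr3 pass the filter on low counts, so it was not tested.

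The cells with most Tacr3 carried cholinergic markers. All 4 cells with at least 2 Tacr3 UMIs had at least 2 of Chat, Slc5a7, Slc18a3, Slc10a4 and Lhx8, which encode acetylcholine synthesis, choline uptake, vesicular acetylcholine transport, a transporter of cholinergic vesicles and a transcription factor of these neurons. The gate for cholinergic neurons held only 0, 3 and 1 cells, and Chat was at 0 in these 4. After this was seen, all cells with at least 2 of these markers were taken whatever their gate. There were 14 in library 2, 0 in library 1 and 1 in library 3, so what follows is from a single library with no replicate.

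Those 14 cells of library 2 had Slc5a7 (280 UMIs in 11 cells), Slc10a4 (89 in 13), Lhx8 (49 in 12), Slc18a3 (34 in 9) and Chat (11 in 5). Tacr1 was found in 9 of them (64.3%, exact 95% Clopper-Pearson interval 35.1% to 87.2%) with 38 UMIs, or 330 CPM. The interval covers counting error only. Tacr3 had 15 UMIs in 6 of them, and 13 of these UMIs are those of the 4 cells that led to the choice of markers, so its level there is a description of that choice. Of the other 2941 cells of library 2 that were at least as deep as the shallowest of the 14, 0.816% had Tacr1. The Tacr1 of cells with cholinergic markers had also been seen before this choice. The 14 cells were deeper, with a median of 8048 UMIs (2164 to 13991) against 3381. They also carried markers of other cells: 9 had at least 2 oligodendrocyte markers and 5 at least 2 astrocyte markers, against 1006 and 962 of the 2941 other cells. Of the 14, 10 were outside every gate. The part of doublets and depth in these shares was not tested. Across all cells with at least 2 Tacr1 UMIs, 27 in number, 18 had at least 5 UMIs of Sst or Npy and 9 had at least 2 cholinergic markers.

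The 24 other genes of the tachykinin pathway list cover peptide processing and breakdown, receptor signalling and desensitisation. Between Drd1-gated and Adora2a-gated neurons 14 were tested: 1 was higher and 1 lower (beside 1.3% and 1.41% of all genes), with a list median of -0.004 on the log2 scale. Prkca, a protein kinase C downstream of Gq, was at 135 ± 28.9 against 66.5 ± 7.86 CPM (edgeR log2 fold change 0.84, SE 0.16, adjusted p 0.00021). With DESeq2 its log2 fold change was 0.90 (adjusted p 0.48), and without the library block it was 0.95 (edgeR adjusted p 0.53). Pcsk2, a convertase that cuts peptide precursors, was lower, at 420 ± 169 against 509 ± 179 CPM (edgeR log2 fold change -0.34, SE 0.09, adjusted p 0.019), a call lost with DESeq2, without the block, without the low-count filter, with strict gates and without library 2 or 3, at log2 fold changes of -0.35 to -0.31. Between Tshz1-gated and Drd1-gated neurons 0 of 15 passed in edgeR, between Sst-Npy-gated and spiny neurons 0 of 16, and 0 of 12 in each of the mCherry and Pdyn comparisons.

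Glutamatergic neurons differed more: 5 of 17 genes of the list were higher than in spiny neurons and 1 lower, where 9.21% of all genes passed as higher and 7.28% as lower, with a list median of 0.25 against -0.04 over all genes on the log2 scale. The highest were Adrbk2, a receptor kinase, at 55.2 against 3.71 CPM (edgeR log2 fold change 3.13, SE 0.45, adjusted p 0.00096) and Plcb4, a phospholipase C, at 33.5 against 3.66 CPM (edgeR log2 fold change 2.58, SE 0.46, adjusted p 0.0036). Mme, the peptidase neprilysin that cleaves substance P, was lower, at 2.04 against 32.8 CPM (edgeR log2 fold change -3.06, SE 0.69, adjusted p 0.0097). Without library 3 the log2 fold change of Plcb4 was 2.53 (edgeR adjusted p 0.058) and that of Mme -2.22 (edgeR adjusted p 0.16). Without library 2 that of Mme was -6.99. In neurons against non-neuronal cells 9 of 19 were higher and 4 lower, beside 31.0% and 33.6% of all genes. Pcsk2 was at 411 against 15.5 CPM (edgeR log2 fold change 4.20, adjusted p 3.6e-05), Mme at 27.6 against 0.908 CPM (4.11, adjusted p 0.00020 in edgeR) and the phospholipase C gene Plcb3 at 0.655 against 8.16 CPM (-3.60, adjusted p 0.00066 in edgeR).

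Over the 11 classes with at least 10 cells in every library, the genes whose mean log2(CPM + 10) followed that of Tac1 most closely were Pkp2 (Pearson r 0.987), Foxp2 (0.977) and Pdyn (0.976). For Tac2 they were Igfbpl1 (0.981), RP23-231J2.1 (0.976) and Otof (0.969). Tac1 ranged over 6.32 log2 units and Tac2 over 2.78. The Tac2 pattern is mainly that of Tshz1-gated neurons (60.4 CPM), with Drd1-gated neurons next at 5.84 CPM. Its neighbours thus follow mainly 1 class, whose library 1 value is 1 UMI. The genes nearest Tacr1 were Vwc2l (0.948), Gm16485 (0.940) and Inadl (0.938), over a range of 1.43. The Sst-Npy-gated class was too small to be among the 11. The Tacr1 range is set by Tshz1-gated neurons, where 1 UMI in the 15 cells of library 1 gives the highest value. The neighbours of Tacr1 thus follow a single UMI and rank nothing. Tacr3 ranged over 0.13 log2 units, too little to rank genes by. These are descriptions over classes of the same 3 libraries, with the best of 12457 genes taken each time.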

How the data were processed

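Per the labels, the authors used the 3′ v2 single-cell chemistry of 10x Genomics. The deposited file is 1 matrix of UMI counts, whole numbers for each cell and gene, that pools 3 samples. Cell Ranger 3.0 and mm10 are named in the submitters' processing notes, and the matrix header gives 3.0.0. How cells were called is not given in the sources used here. Barcode suffixes separate the libraries, and no label ties a suffix to a numbered replicate.

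Cells were kept with 300 or more genes and no more than 20% of UMIs from mitochondrial genes. A broad class needed 2 markers, with every other class at no more than 1 in 3 of that number, so cells with markers of more than 1 class, which may be doublets, stayed ungated; removal by Scrublet (scanpy 1.11.5) was an alternative. The listed markers Trac, Trbc2 and Gpr52 had no feature. Counts were summed per library and class, since cells are not replicates, in classes of at least 10 cells. Sums were compared with edgeR 4.0.16 (R 4.3.3; TMM, filterByExpr, robust = TRUE, legacy = FALSE, Benjamini-Hochberg at 0.05 over all genes tested). The library was a block because each library gives both of the sums compared. Standard errors are the log2 fold change over the square root of F, and they can be narrower than counting error where UMIs are few. Construct features were left out of the mCherry fit. Alternatives were DESeq2 1.42.0, other scaling, filter, prior, gates and depth, and each library left out. The code was tested on simulated data. CPM and shares were computed from the counts with numpy 2.4.6 and scipy 1.17.1, with exact 95% intervals that cover counting error only, and a floor of 3 counts.

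Members and lists were chosen with earlier results of these data known. Named genes are the members, the 3 pathway genes of largest absolute log2 fold change that passed and moved the same way in every library, and the 3 genes nearest each member's pattern. RefSeq proteins were not used here. Peptide stretches were read from GENCODE M21 coding transcripts.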

Additional observations from a re-analysis of the deposited data

Results flagged for a closer look

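The comparisons did not use cells outside every gate, and all members had UMIs there: 4630 of Tac1, 23 of Tac2, 47 of Tacr1 and 14 of Tacr3. For Tacr1 these were 32.4% of its UMIs, in 22 cells, and for Tacr3 51.9%, in 6 cells. Of the 22 cells with Tacr1, 7 had at least 2 cholinergic markers and 2 had at least 5 UMIs of Sst or Npy. Of the 6 cells with Tacr3, 4 had at least 2 cholinergic markers. The ungated cells with Tac2, 18 in number, had Tac1 in 12, Penk in 12 and Tshz1 or Pcdh8 in 5. Of all 2916 ungated cells, 1078 had Tac1.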

How the results depend on the processing

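Of the alternative values of the members' log2 fold changes, 112 kept their direction and their side of the threshold, 5 lost the call, 1 gained it and 0 reversed. Without the replicate block, which the design gives since each library holds both classes, no member's call changed. The calls lost were Tac1 in Drd1-gated over Adora2a-gated neurons with strict gates (3.46), Tac2 in Tshz1-gated over Drd1-gated neurons without library 2 (3.93) or 3 (3.33), Tacr1 in Sst-Npy-gated over spiny neurons without the low-count filter (7.29) and Tacr1 in neurons over non-neuronal cells without library 3 (2.87). For the last, values without 1 library ran from 2.29 to 4.87. The package-default prior called Tac1 in Sst-Npy-gated over spiny neurons (-0.89, edgeR adjusted p 0.0040). Leaving out 1 of the 2 libraries of the Sst-Npy comparison could not be fitted.

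The counts of genes called moved more, and the cause was not tested. For Drd1-gated over Adora2a-gated neurons (181 genes) they were 43 with DESeq2, 109 without the low-count filter, 22 without the replicate block, 106 with strict gates and 81 to 199 without 1 library. For Tshz1-gated over Drd1-gated neurons (171) they were 79 with DESeq2, 262 with library-size scaling only, 264 with the default prior, 93 without the block, 383 in cells of at least 1000 UMIs, where library 1 also dropped out for lack of cells, and 0 to 381 without 1 library (381 without library 1). The 0 arose without library 2 and without library 3, where edgeR gave 549 and 573 genes an unadjusted p under 0.05. For Sst-Npy-gated over spiny neurons (28) they were 227 with DESeq2, 11 with library-size scaling only, 0 without the filter (1588 at an unadjusted p under 0.05 in edgeR), 810 with the default prior, 410 without the block, 202 with strict gates, 10 in cells of at least 1000 UMIs, 11 after Scrublet and 498 with at least 5 cells. For glutamatergic over spiny neurons (1334) they were 882 with DESeq2, 880 without the block and 432 to 2208 without 1 library. The mCherry comparison (0) gave 4 without the filter and 2 with the default prior. The Pdyn comparison (5) gave 1 with DESeq2, without the block or with strict gates, 2 without the filter or in cells of at least 1000 UMIs, 8 with relaxed gates and 1 to 2 without 1 library.

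Thinned to 1000 UMIs, the mean share of cells was 68.1% for Tac1 in Drd1-gated, 4.35% for Tac2 in Tshz1-gated and 43.2% for Tacr1 in Sst-Npy-gated neurons. Strict gates moved Tac2 in Tshz1-gated neurons to 136 CPM and 15.5% of cells, and cells of at least 1000 UMIs had 37.6 CPM. There library 1 lost its single Tac2 UMI, while libraries 2 and 3 were at 72.4 and 40.4 CPM; with strict gates the libraries were at 221 (1 UMI in 5 cells), 109.6 and 78.1 CPM. The relaxed gates and the minimum of 5 cells were chosen after seeing the data. In the Pdyn comparison, matching on UMIs left the depths unequal (a median of 2952 against 2235 UMIs in library 2).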
